A study of Rattus norvegicus with 6 samples.

Results

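Single-exon exonic circRNAs are closed loops made of 1 exon whose own splice donor has been joined to its own splice acceptor. They were taken from the authors' circRNA table as the entries typed as exonic, listed with 1 exon and holding at least 1 back-splice read over all libraries. This gave 376 circRNAs of the 8635 with a read, and of the 7461 exonic ones with a read. A further 70 single-exon entries had no read and were not described. The white matter of 3 rats of a cerebral palsy model was compared with that of 3 healthy control rats, with 1 library per rat. The sources used here do not state how the model was made, nor strain, age or sex. RNA of both groups had been treated with RNase R, which digests linear RNA, before random-primed sequencing. Each value below is therefore a count of reads crossing a back-splice junction, and no linear mRNA was measured.

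Back-splicing joins a downstream donor to an upstream acceptor, and is known to be helped by long flanking introns, in which paired repeats or bound proteins bring the exon's ends together. A circle of 1 exon is a special case: the exon must be long enough to bend back on itself, and such exons are known to be longer than the usual internal exon. Circles lack free ends and are long lived, and they are known to be abundant in brain. Several that are widely described, such as those of the kinase gene Hipk3 and of the exchanger gene Slc8a1, consist of 1 exon.

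The libraries held 5821, 4750 and 5697 junction reads in model rats 1 to 3 and 6793, 6285 and 5926 in control rats 1 to 3. Single-exon circRNAs took 672, 538 and 511 of them in model rats, against 649, 523 and 578 in control rats. Of the hosts that mark oligodendrocytes, the myelin-forming cells of white matter, 5 of 9 gave a circRNA (Mbp, Mobp, Myrf, Opalin and Ugt8), and Mog, Mag, Cnp and Cldn11 gave none. These hosts held 0% to 0.126% of junction reads in model libraries and 0.0294% to 0.101% in control libraries. Of 8 neuronal marker hosts 3 were seen (0% to 0.137% in model and 0.0159% to 0.0883% in control libraries), and of 8 astrocyte marker hosts 3 (0.0859% to 0.211% and 0.118% to 0.239%). All 6 microglial markers were at 0. Of 6 endothelial and pericyte markers Flt1 was seen, and of 4 markers of oligodendrocyte precursors Sox6. Many marker genes are not known to form circles, so these reads do not measure cell makeup. In bulk tissue, fewer cells of a type and less circRNA per cell cannot be told apart.

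The single exons were long. Their median length was 519 bases (quartiles 256 and 932), from 112 bases in a circRNA of Ephx2 to 5787 bases in one of Tcf20, a transcriptional coregulator gene. Only 5 circRNAs (1.33%) were shorter than the 150-base read, and 83 (22.1%) reached 1000 bases. Libraries had been cut to fragments of 150 to 300 bases by the labels' protocol, and what this did to short circles was not tested. Circles with more reads had longer exons: the median was 402 bases for circRNAs with 1 read, 514 for those with 2 to 9 and 831 for those with at least 10. Across the 376 circRNAs the rank correlation of length with reads was 0.28, a description over circRNAs that share the same 6 libraries. Among those with at least 10 reads the shortest was the Hdac4 circRNA (239 bases) and the longest the Tcf20 circRNA. The length was a whole multiple of 3 in 139 circRNAs (37%), left 1 base over in 139 and left 2 in 98 (26.1%).

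**Figure D1:**
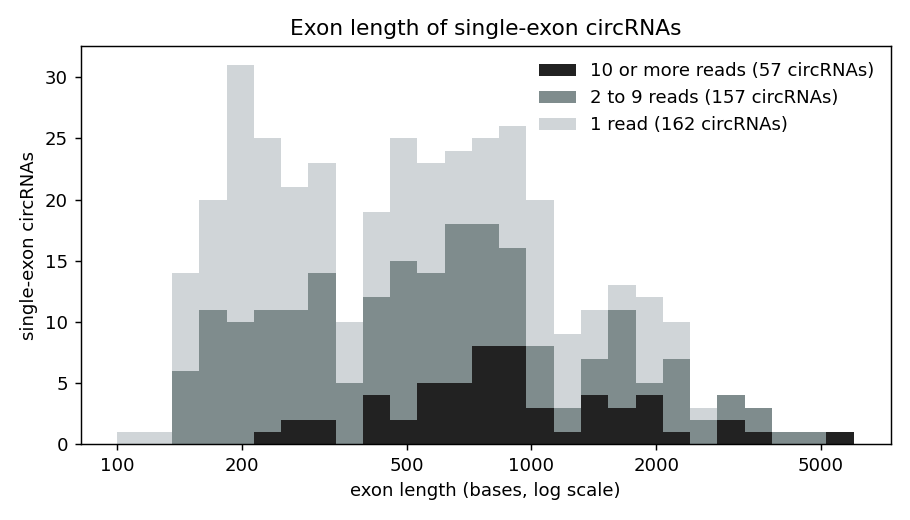
Exon length (horizontal axis, bases, log scale) of the 376 single-exon circRNAs, with their number on the vertical axis and bars stacked by total reads. The 57 circRNAs with at least 10 reads, drawn at the bottom, centre on longer exons (median 831 bases) than the 162 with 1 read (median 402 bases).

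The introns on either side were long as well. Together they measured a median of 44282 bases (quartiles 19056 and 115135) in the 372 single-exon circRNAs with both introns listed, against 18188 bases in 7075 circRNAs of 2 or more exons. Circles of 2 exons, the nearest class, had a median of 19264 bases. The shorter of the 2 introns had a median of 10332 bases in single-exon circRNAs and 4284 in circRNAs of 2 or more exons. On the upstream side the median was 16616 bases in single-exon circRNAs and 7912 in the rest, and on the downstream side 18053 and 6910. In circRNAs with at least 10 reads the medians lay closer, at 55171 bases for the 57 single-exon circRNAs and 34014 for 501 others. Flank length was almost unrelated to exon length (rank correlation 0.01) and weakly related to reads (0.18), both descriptions over 372 circRNAs. These are properties of the annotation and carry no replicate error, so no test was made.

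**Figure D2:**
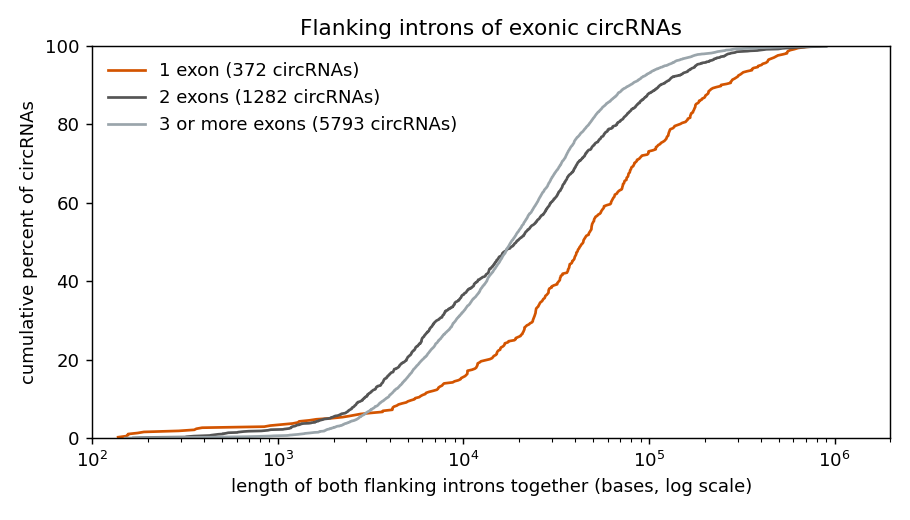
Summed length of both flanking introns (horizontal axis, bases, log scale) against the cumulative percent of circRNAs, for exonic circRNAs of 1, 2 and 3 or more exons. The curve for 1 exon lies to the right over most of its range, with a median of 44282 bases against 19264 bases for 2 exons.

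Single-exon circRNAs were few but well filled. They made up 5.04% of exonic circRNAs and 10.3% of exonic reads, 3471 of 33651. The mean was 9.23 reads per circRNA, against 2.47 to 5.16 in classes of 2, 3, 4, 5, 6 to 9 and 10 or more exons. That mean is raised by the Nfix circRNA, which alone had 1018 reads. At least 10 reads were held by 15.2% of single-exon circRNAs and by 7.1% of those with 2 or more exons. A read in each of the 6 libraries was seen for 30 single-exon circRNAs (7.98%), against 2.92% of the others. The single Nfix circRNA accounted for 29.3% of all single-exon reads, and without it the class held 7.52% of exonic reads. The 10 most abundant held 52.1%. At the other end 162 (43.1%) rested on 1 read, beside 49.3% of circRNAs with 2 or more exons. Since 213 (56.6%) were seen in 1 library, presence in 1 group alone says little. Reads came only from model rats in 125, only from control rats in 116 and from both groups in 135.

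The 376 circRNAs came from 357 host genes. Of these, 340 gave 1 single-exon circRNA, 15 gave 2, and Grm7 and Tenm2 gave 3 each. Those of the glutamate receptor gene Grm7 held 5 reads in all (3 in model, 2 in control), and those of the teneurin gene Tenm2 also 5 (4 and 1). After them, by name, came Akap6, Ash1l and Csmd1 with 2 each. In 137 hosts (38.4%) the single-exon circle was the only kind of exonic circle detected, and 220 hosts also gave circles of 2 or more exons. None of the 376 exons held a junction site of another exonic circRNA inside it. The acceptor of the single exon was also used by a longer circle in 82 cases (21.8%) and the donor in 57 (15.2%), and both in 11. Among the 57 with at least 10 reads, the single-exon circle held most of its host's exonic back-splice reads in 41 and all of them in 15 (median 87.6%).

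The Nfix circRNA (circRNA746, chromosome 19, 23383322 to 23383853, plus strand, 532 bases, mRatBN7.2) was the most abundant of all. Nfix encodes a nuclear factor I transcription factor, and no other exonic circle of this host was detected. The reads were 186, 181 and 122 in model rats and 209, 141 and 179 in control rats. Expressed per 1000 junction reads scaled by TMM, it stood at 30.5 ± 8.39 in model rats and 27.8 ± 4.61 in control rats (SD, n = 3 each). The groups overlapped, and the log2 fold of 0.13 ± 0.31 (SE) turned to -0.09 with the authors' divisors as library sizes.

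Chromatin regulators hosted several of the abundant circles. Setbp1, the gene of the SET-binding protein, gave a 630-base circle (circRNA863, chromosome 18, 72529038 to 72529667, minus strand) with 49, 27 and 31 reads in model rats and 60, 30 and 29 in control rats. It held 98.7% of the exonic circle reads of Setbp1, and its 2 flanking introns measured 222526 and 21472 bases. The circle of Hdac4, a class II histone deacetylase gene, was among the shortest well-supported ones (circRNA2249, chromosome 9, 92717232 to 92717470, minus strand), with 18, 30 and 8 reads in model rats and 30, 10 and 17 in control rats. In both, the spread within each group was wider than the gap between groups. Tet3, which encodes a dioxygenase that oxidises 5-methylcytosine, gave a 2155-base circle with 8, 5 and 7 reads in model rats and 17, 2 and 10 in control rats. Kat6b, a histone acetyltransferase gene, gave an 881-base circle with 5, 17 and 7 reads in model rats and 4, 7 and 7 in control rats. Control rat 2 was low for Tet3 and model rat 2 high for Kat6b, and both groups overlapped. Pwwp2a, encoding a reader of H2A.Z chromatin, had 5, 6 and 4 reads in model and 7, 17 and 6 in control rats. Kansl1, a subunit gene of an acetyltransferase complex, had 9, 4 and 7 in model and 4, 9 and 6 in control rats.

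Slc8a1, Fut8, Hipk3 and Mapk4 hosted the other circles among the 7 with the most reads. The circle of Slc8a1, the sodium-calcium exchanger gene, is 1830 bases long (circRNA1138, chromosome 6, 13271224 to 13273053, plus strand) and lies between introns of 76422 and 202621 bases. It had 12, 6 and 9 reads in model rats and 19, 19 and 34 in control rats, or 1.64 ± 0.46 and 3.85 ± 1.62 per 1000 (SD, n = 3 each). All 3 model rats lay under the lowest control rat. The other 3 exonic circles of Slc8a1 held 9 reads in model and 5 in control rats. Fut8, whose enzyme adds core fucose to N-glycans, gave a 428-base circle with 14, 8 and 9 reads in model rats and 11, 10 and 21 in control rats. Hipk3 gave a 1099-base circle (circRNA1661, chromosome 3, 90844144 to 90845242, minus strand) and no other, with 9, 9 and 11 reads in model rats and 19, 8 and 9 in control rats. Mapk4, an atypical MAP kinase gene, had 15, 7 and 9 reads in model and 16, 5 and 8 in control rats, from the only exonic circle of that host. For Fut8, Hipk3 and Mapk4 the groups overlapped.

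Among the 15 with the most reads were also circles of Mfsd6, RGD1310951, Ralyl and Tmem132b. The circle of Mfsd6, a gene of the major facilitator family, had 8, 6 and 7 reads in model rats and 15, 16 and 7 in control rats. That of Ralyl, an RNA-binding protein gene, was even across libraries, with 7, 7 and 5 in model and 7, 6 and 6 in control rats, and lay between the widest introns of the 15 (269859 and 338602 bases). The Tmem132b circle had 10, 5 and 5 reads in model and 6, 6 and 5 in control rats. The RGD1310951 circle had 8, 1 and 12 in model and 7, 1 and 9 in control rats, with rat 2 low in both groups. In the plot of levels, Slc8a1 is the only one of these 15 whose groups do not overlap.

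**Figure D3:**
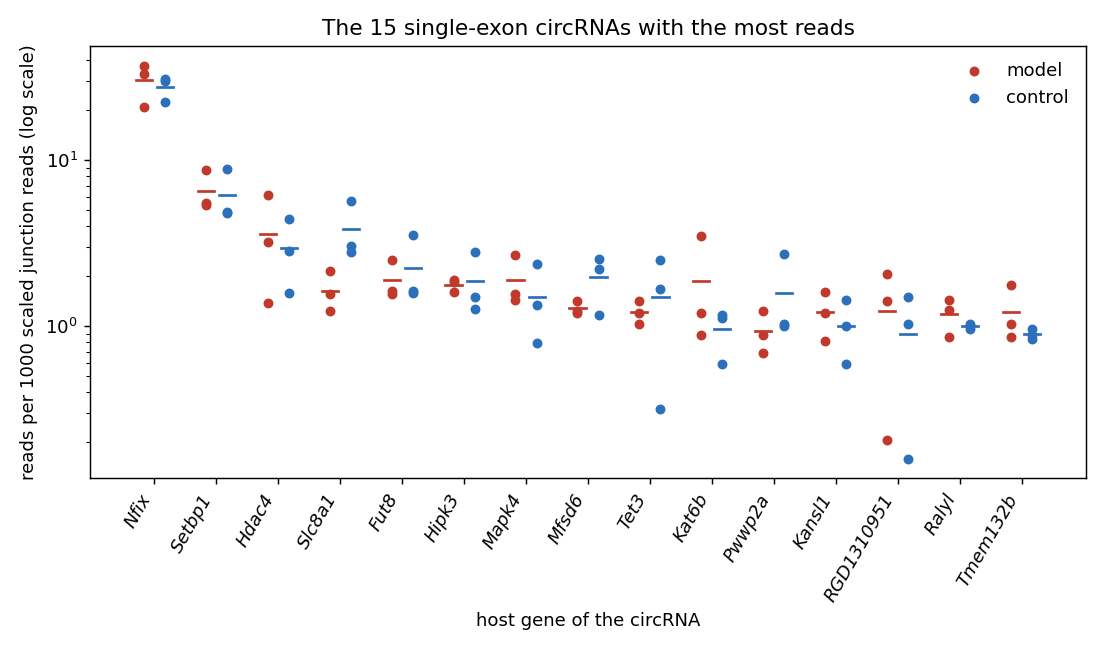
Level of each of the 15 most abundant single-exon circRNAs in every library (vertical axis, reads per 1000 TMM-scaled junction reads, log scale), with points for single rats and a line for each group's mean. Nfix stands far above the rest (means 30.5 in model and 27.8 in control rats), and Slc8a1 is lower in all 3 model rats.

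The design asks whether these circles differ between model and control white matter. In edgeR's quasi-likelihood test over all circRNAs with the default low-count filter, 60 circRNAs could be tested and 3.33% of them were called at an adjusted p of 0.05. Of the 376 single-exon circRNAs only 5 passed that filter (Nfix, Setbp1, Hdac4, Slc8a1 and Hipk3), and 0 were called. At an unadjusted p under 0.05 there was 1, Slc8a1, lower in model rats, as were 6.67% of the 60 at that level. DESeq2 and limma voom each called 0 of the 5, beside 3.33% of the 60, and each had 0 of the 5 at an unadjusted p under 0.05. At that level stood 3.33% of the 60 in DESeq2 and 6.67% in limma voom. The Slc8a1 log2 fold was -1.20 ± 0.47 (SE, edgeR adjusted p = 0.298), and it was -0.78 without control rat 3. For Setbp1 it was 0.08 ± 0.36, for Hdac4 0.25 ± 0.48 and for Hipk3 -0.07 ± 0.57, and like Nfix each of these changed sign in at least 1 alternative fit. With SEs of this size, the folds do not show that these circles were equal between groups.

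With a filter of 6 reads over all libraries, 83 single-exon circRNAs entered and edgeR called 0 of them, beside 0.194% of all 1029 tested; 4 of the 83 had an unadjusted p under 0.05, beside 5.05% of the 1029. With a filter of 10 reads over all libraries, 57 single-exon circRNAs entered among 561 and edgeR called 0% of all 561. At an unadjusted p under 0.05 there were 5 of the 57 (8.77%), beside 5.7% of all 561. Of these 3 were higher in model rats (2.32% of all 561 were) and 2 lower (3.39%). Without model rat 1 there were 2 of 48, both lower, beside 6.36% of 472 circRNAs. Dropping model rat 3 left 2 of 45, beside 5.25% of 476, and dropping model rat 2 left 7 of 52, beside 24 of 496. Dropping control rats 1, 2 and 3 in turn left 4 of 51, 4 of 51 and 5 of 50. Over all circRNAs tested in those 3 fits it was 23 of 473, 22 of 483 and 24 of 470. DESeq2 called 0 of the 57 and 0 of the 561 after adjustment, and had 4 of the 57 at an unadjusted p under 0.05, beside 4.1% of the 561. Limma voom called 0 of the 57, beside 0.357% of the 561, and had 4 at an unadjusted p under 0.05, beside 5.7%. Positive folds were found in 40 of 57 (70.2%), beside 48.5% of all 561, and the median log2 fold was 0.24 beside -0.03. With the authors' divisors as library sizes, 35 of 57 were positive and the medians were 0.12 and -0.18. Without model rat 1 it was 25 of 48, and the medians were 0.11 and -0.12. Groups that did not overlap were seen in 5 higher (8.77%, beside 6.06% of all 561) and 2 lower (3.51%, beside 5.88%). No test was made of these shares.

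The 5 circles past the unadjusted level were those of Slc8a1, Ash1l, Zranb1, RGD1311595 and Zscan18, and the last 3 were named with their values already known. Ash1l encodes a histone H3 methyltransferase of the trithorax group, and its 736-base circle (circRNA1842, chromosome 2, 174402046 to 174402781, plus strand) had 2, 1 and 0 reads in model rats and 12, 3 and 5 in control rats. The log2 fold was -2.42 ± 1.10 (SE, edgeR adjusted p = 0.861). Dropping single libraries gave folds between -3.24, when model rat 1 was dropped, and -1.76, when control rat 1 was. The Ash1l circle missed the unadjusted level without model rat 2, model rat 3 or control rat 1 (edgeR unadjusted p = 0.0653 to 0.251). It also missed that level with the replicate block (edgeR unadjusted p = 0.0573), in DESeq2 (unadjusted p = 0.0584) and in limma voom (unadjusted p = 0.0644). Its other circles, 15 with 2 or more exons, held 40 reads in model and 38 in control rats. A second single-exon circle of Ash1l had 0 reads in model and 2 in control rats. Whether the circles of Ash1l differ from each other in their fold was not tested.

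Zranb1 encodes a deubiquitinase of the Wnt pathway, and its 851-base circle (circRNA5800, chromosome 1, 187741935 to 187742785, plus strand) had 6, 2 and 4 reads in model rats and 0 in each of the 3 control rats. A count of 0 in 1 control library allows up to 3 reads, 0.0442% to 0.0506% of its junction reads. With 3 reads taken for the whole control group, the level was 4.67-fold higher in model rats (edgeR adjusted p = 0.772 at the 10-read filter). That figure takes the 12 model reads as exact and leaves out the spread between rats, so it is no lower bound. The other 7 exonic circles of Zranb1 held 20, 17 and 11 reads in model rats and 9, 24 and 30 in control rats. The single exon shares both its acceptor and its donor with longer Zranb1 circles.

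Both remaining circles had more reads in model rats. RGD1311595, listed by RefSeq as Brd10, gave a 1418-base circle (circRNA2088, chromosome 1, 227535669 to 227537086, minus strand) with 10, 3 and 6 reads in model rats and 1, 0 and 2 in control rats. Its log2 fold was 2.65 ± 1.09 (SE, edgeR adjusted p = 0.782), and it ranged from 2.13 (without control rat 2) to 3.49 (without control rat 3). The unadjusted level was missed without model rat 1 (edgeR unadjusted p = 0.109) and without control rat 2 (edgeR unadjusted p = 0.0746). Its other 3 exonic circles held 3 reads in model and 4 in control rats. Zscan18, a zinc finger gene, gave a 1796-base circle (circRNA3561, chromosome 1, 73339588 to 73341383, minus strand) with 5, 4 and 6 reads in model rats and 0, 1 and 2 in control rats. Its log2 fold was 2.33 ± 1.12 (SE, edgeR adjusted p = 0.862), and ranged from 1.78 (without control rat 1) to 3.15 (without control rat 3). It missed the unadjusted level with the authors' divisors (edgeR unadjusted p = 0.0624) and with the replicate block (edgeR unadjusted p = 0.0697). It also missed that level without model rat 1, model rat 3, control rat 1 or control rat 2 (edgeR unadjusted p = 0.0774 to 0.145). It was the only exonic circle of Zscan18. One of its flanking introns measured 540 bases, and no other of the 57 had an intron under 1000. Groups also did not overlap for Tp53bp1, a gene of double-strand break repair, with 8, 2 and 2 reads in model and 2, 0 and 0 in control rats. The same held for Sv2b, a synaptic vesicle protein gene, with 2, 5 and 3 in model and 0, 2 and 0 in control rats. The other 6 exonic circles of Sv2b held 5 reads in model and 17 in control rats, and the other 2 of Tp53bp1 held 0 and 2. In both, libraries with 2 reads stood on either side, so the margin rests on the scaling. Both were also named after their values were seen, and neither passed even the unadjusted level.

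**Figure D4:**
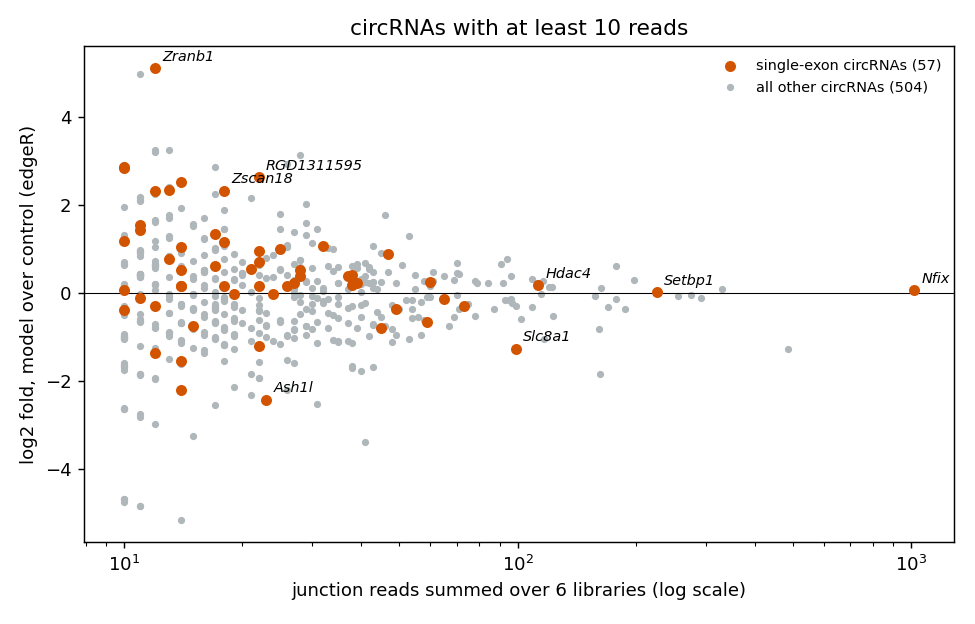
Log2 fold of model over control from edgeR (vertical axis) against total reads (horizontal axis, log scale) for the 561 circRNAs with at least 10 reads, with the 57 single-exon circRNAs in orange and named where the unadjusted p is under 0.05 or reads exceed 110. Folds scatter more widely at low read totals, and the Zranb1 value depends on the prior count because no control library held a read.

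In the authors' deposited table, 5 single-exon circRNAs (1.33%) are marked as changed, beside 0.405% of all 8635. All 5 hold at least 10 reads, as do 15.2% of single-exon circRNAs but only 7.1% of the other exonic ones. The shares of marked circRNAs are not matched for reads. Whether the class is marked more often at equal reads was not tested. The authors' deposited table marks Zranb1, RGD1311595 and Zscan18 as higher in model rats (0.151% of all are) and Slc8a1 and Ash1l as lower (0.255%). The authors' deposited table gives them p-values of 0.00541 (Zranb1) to 0.0229 (Zscan18), and a q-value of 1 for each. These are the same reads as in the fits above, so the mark is no separate evidence.

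Hosts were also grouped by function. The lists are partial. Some further hosts with at least 10 reads were added to a class after their values were seen, and the values with these are given as well. The additions are a choice and partial too, so the shares do not cover a whole class. The list of 75 transcription factors had 15 hosts with a single-exon circle, and their share of single-exon reads was 30.1% ± 4.95 in model and 31.6% ± 2.77 in control rats (SD, n = 3 each), nearly all of it Nfix. With Foxn2, Tshz2, Zscan18, Smad1, Zhx3 and Zfp827 added it was 33.5% ± 4.69 in model and 33.7% ± 2.40 in control rats. Of the list's members with at least 10 reads, Tcf20 had 2, 3 and 2 reads in model and 0, 3 and 4 in control rats. It is on the list although described above as a coregulator gene. Zfp536 had 4, 0 and 1 reads in model and 0, 0 and 5 in control rats. Of 79 listed chromatin regulator genes, 58 hosted an exonic circRNA and 15 a single-exon one. The single-exon circles of this list took 13.6% ± 1.93 in model and 14.7% ± 4.24 in control rats. Of its 5 members with at least 10 reads, 3 had a positive and 2 a negative fold (median log2 0.02, beside -0.03 over all 561), and 0 were called. With Pwwp2a and Kansl1 added the share was 15.7% ± 1.77 in model and 17.7% ± 3.23 in control rats, and 4 of 7 folds were positive.

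Of 61 listed genes of ion channels and transporters, 48 hosted an exonic circRNA and 8 a single-exon one. Their share of single-exon reads was 2.87% ± 1.04 in model and 5.17% ± 2.13 in control rats (SD, n = 3 each), most of it Slc8a1. With Mfsd6 added it was 4.10% ± 1.14 in model and 7.37% ± 1.41 in control rats. The other listed member with at least 10 reads was Atp2b1, a plasma membrane calcium pump gene, with 4, 3 and 6 reads in model and 5, 2 and 6 in control rats. Of 94 listed protein kinase genes, 73 hosted an exonic circRNA and 11 a single-exon one. Their share was 3.73% ± 0.762 in model and 3.31% ± 1.61 in control rats. With Mapk4 added, whose circle follows that of Hipk3 in reads, it was 5.50% ± 0.67 in model and 4.91% ± 2.37 in control rats. The next was Epha6, an ephrin receptor gene, with 3, 7 and 2 reads in model and 3, 0 and 3 in control rats. Dclk2, a doublecortin-like kinase gene, had 0, 0 and 5 reads in model and 4, 1 and 2 in control rats. Acvr1, a BMP receptor gene, had 5, 0 and 4 in model and 0, 0 and 1 in control rats. Among 6 hosts of the ubiquitin list (0.57% ± 0.558 of single-exon reads in model and 1.33% ± 1.09 in control rats) Rnf220, a ligase gene, reached 10 reads, with 0, 5 and 0 in model and 2, 1 and 7 in control rats. With the deubiquitinase gene Zranb1 added, the reads were 22 in model and 22 in control rats, and the share 1.25% ± 0.407 in model and 1.33% ± 1.09 in control rats. Among 7 cadherin hosts (1.45% ± 0.617 in model and 1.31% ± 0.387 in control rats) only Fat3 did, whose 3306-base exon gave 2, 4 and 9 reads in model and 7, 2 and 4 in control rats. Of 29 factors acting on circRNA formation or turnover, Mbnl1 alone gave a single-exon circle, with 1 read in model and 1 in control rats. Of 18 hosts whose single-exon circles are described in the literature, 10 had one here and 5 had at least 10 reads (Nfix, Setbp1, Slc8a1, Hipk3 and Fat3). The 1459 reads of all 10 hosts made up 39.6% ± 4.28 of single-exon reads in model and 44.1% ± 5.32 in control rats (SD, n = 3 each).

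Taken as a class, single-exon circRNAs held 12.0%, 12.0% and 9.46% of exonic junction reads in model rats 1 to 3, and 9.92%, 8.72% and 10.2% in control rats 1 to 3. The means were 11.2% ± 1.49 in model and 9.62% ± 0.793 in control rats (SD, n = 3 each). Model rats 1 and 2 lay above all control rats, with 95% Wilson intervals of 11.2% to 12.9% and 11.1% to 13%, and model rat 3 lay among the controls. The difference of 1.55 points did not pass an exact two-sided permutation test (p = 0.3, adjusted over 3 measures 0.6, n = 3 each), for which 3 against 3 rats give no p below 0.1. Without model rat 3 it was 2.41 points. Without Nfix the shares were 9.0%, 8.32% and 7.37% in model rats and 6.95%, 6.53% and 7.29% in control rats. Here every model rat lay above every control rat, with an exact permutation p of 0.1 (n = 3 each), the smallest the design allows.

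**Figure D5:**
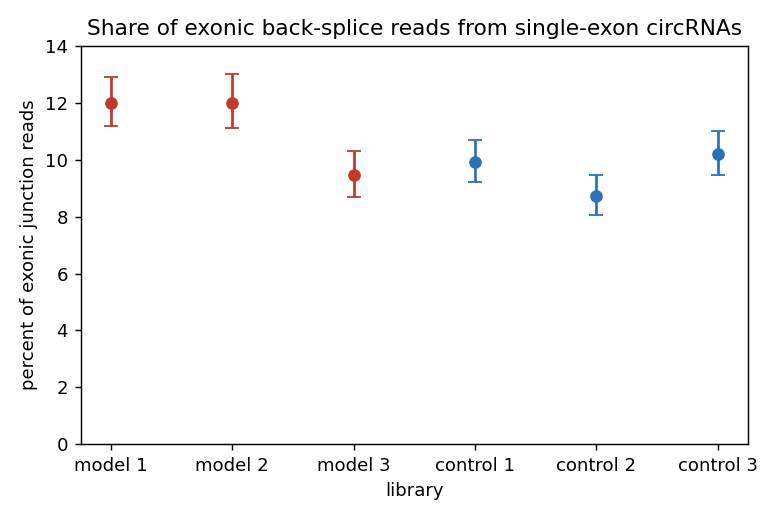
Percent of exonic back-splice reads that came from single-exon circRNAs in each library (vertical axis), with 95% Wilson intervals that cover counting error only. Model rats 1 and 2 lie near 12%, while model rat 3 (9.46%) falls within the range of the control rats (8.72% to 10.2%).

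The make-up of the class by exon length was close in both groups. Exons of at least 500 but under 1000 bases took 57.1% ± 4.08 of single-exon reads in model and 56.7% ± 2.23 in control rats, and those of 1000 bases or more 22.6% ± 3.68 and 22.7% ± 0.905 (SD, n = 3 each). Exons under 250 bases took 8.30% ± 0.934 in model and 7.08% ± 0.885 in control rats. The mean log2 exon length per read was 9.38 ± 0.06 in model and 9.40 ± 0.04 in control rats (exact two-sided permutation p = 0.8, adjusted 0.8, n = 3 each). Its difference of -0.016 changed sign under several settings. At an equal depth of 4750 reads a library would hold 138.4, 116 and 116.1 distinct single-exon circRNAs in model rats and 105.1, 111.9 and 121.6 in control rats. The means were 123.5 ± 12.9 in model and 112.9 ± 8.27 in control rats (SD; exact two-sided permutation p = 0.4, adjusted 0.6, n = 3 each), and the groups overlapped. The difference of 10.6 was 3.2 without model rat 1. A stricter count took only circles with at least 2 reads within the library's own 4750 reads, not summed over libraries. The values were then 68.4, 63 and 66.8 in model and 47.8, 57.5 and 57.7 in control rats, without overlap (exact permutation p = 0.1, n = 3 each).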

How the data were processed

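Raw counts of back-splice junction reads per circRNA and library were deposited by the authors, per the file headers, with a normalised signal named SRPBM, the number of exons, and the authors' own log2 fold changes, p-values and q-values. The authors' log2 fold is another measure than those computed here. SRPBM was used only for its divisor per library. Per the submitters' processing notes, coordinates are on mRatBN7.2. The aligner and the caller of circRNAs were not given in the sources used here. Exon length is end minus start plus 1. In all 9462 exonic entries with both introns listed, these abut the circle.

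Counts of all circRNAs were fitted with edgeR 4.0.16 in R 4.3.3 (quasi-likelihood, TMM, filterByExpr with min.count 10 and min.total.count 15), with Benjamini-Hochberg adjustment over all circRNAs tested and a threshold of 0.05. The SE is the log2 fold over the square root of F. DESeq2 1.42.0, limma 3.58.1 voom, other filters, scalings, a replicate block and left-out libraries were alternatives. Library measures were compared by exact permutation tests (scipy 1.17.1). Distinct circRNAs at 4750 reads came from the hypergeometric expectation. The fits were also run on simulated counts whose spread between replicates was fixed and not matched to these data. No conclusion is drawn from that run. Intervals and floors cover counting error only, since PCR reads are not single molecules. Host names are the authors'. Of 357 hosts, 345 matched RefSeq (GRCr8), used for names only. Exon sequences were not used here. One marker host is not reported here.

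Circles were named if they passed the default filter, were among the 15 with the most reads, were the shortest or longest with at least 10 reads, or belonged to a function list with at least 10 reads. The 5 hosts with the most circles and the 5 with the most reads were also named, and exceptions are stated. The members and lists were chosen with earlier results of these data known.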

Additional observations from a re-analysis of the deposited data

How the results depend on the processing

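No single-exon circRNA was called under any of the alternatives run: 0 with other scalings, at 6 reads, at 10 reads, unfiltered, in DESeq2, in limma voom, with the replicate block or with any 1 library left out. Calls over all circRNAs were rare too: 0 of 60 with DESeq2 size factors, 2 of 60 with the authors' divisors and 2 of 1029 at 6 reads. At 10 reads 0 of 561 were called, unfiltered 0 of 8635, and in DESeq2, limma voom and the block 2 of 60 each. With 1 library left out at the default filter, 1 of 83 was called without model rat 2 and 0 otherwise. The 0 calls therefore say little about the class. The default filter left 5 of 376 to test, so depth limits what could be called. The replicate numbers gave no sign of pairing the rats (correlations of same-numbered rats -0.08, -0.12 and -0.001 over 60 circRNAs). No rat correlated best with its own number. These correlations rest on deviations from means of 3 rats and cannot exclude a pairing. The count of single-exon calls with the block was 0. At 10 reads the block left 3 of 57 at an unadjusted p under 0.05, beside 18 of all 561, and called 0 of the 57 beside 2 of the 561. The direction of the share of exonic reads and of the number of distinct circles was kept in every alternative. The difference in mean log2 exon length was positive when each detected circle counted once (0.056) and as a median length per read (19.7 bases), and ranged from -0.047 to 0.0077 with 1 library left out. For single circles, the sign of the log2 fold turned as follows, and the cause was not tested. With the authors' divisors it was -0.089 for Nfix and -0.13 for Setbp1. At 6 reads it was -0.019 for Nfix and -0.061 for Setbp1, and unfiltered -0.018 for Setbp1. For Hipk3 it was 0.016 with DESeq2 size factors, 0.022 in DESeq2 and 0.0057 in limma voom. With 1 library left out, folds ranged from -0.0042 to 0.45 for Nfix, from -0.099 to 0.37 for Setbp1, from -0.32 to 0.75 for Hdac4 and from -0.28 to 0.30 for Hipk3.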
